A study of Rattus norvegicus with 7 samples.

Results

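Mural nuclei are the nuclei of the contractile cells wrapped around kidney vessels and capillary tufts: vascular smooth muscle cells, pericytes and mesangial cells. They were picked here by 5 genes: Pdgfrb (the PDGF-B receptor of mural cells), Notch3 (the Notch receptor of vascular smooth muscle), Myh11 (smooth muscle myosin heavy chain), Acta2 (smooth muscle alpha-actin) and Itga8 (integrin alpha8). A barcode was called mural when these genes together had at least 3 unique molecular identifiers (UMIs, 1 per counted RNA molecule), at least 2 of them were detected, the fibroblast genes Pdgfra, Col1a1 and Col3a1 together had at most 1 UMI, and the endothelial receptor genes Flt1 and Kdr together had at most 1. The rule kept 157 of 30746 retained barcodes, 35 of 10839 in the 1-kidney group and 122 of 19907 in the 2-kidney group. The nuclei came from archived kidneys of HSRA rats, a line in which some animals are born with a single kidney, taken at 4 weeks of age from a central piece holding both cortex and medulla. By their titles, 3 libraries are of 1 kidney and 4 are of 2 kidneys, and the protocol names 3 HSRA-S and 4 HSRA-C animals without tying these names to the titles. No treatment is named. A library was counted as 1 animal, because the protocol speaks of animals and the titles differ in a number.

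Smooth muscle cells of arteries and arterioles contract through myosin and actin and set blood flow into the glomerulus, pericytes line the peritubular capillaries and the vasa recta, and mesangial cells hold the glomerular capillary loops together. Mural cells are recruited to vessels by endothelial PDGF-B acting on the Pdgfrb receptor, and Notch3 signalling matures them. Itga8 binds nephronectin in the early kidney, where it is needed for the ureteric bud to enter the metanephric mesenchyme, and stays on in mesangial cells and vascular smooth muscle.

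Retained barcodes had at least 200 genes, at most 10000 UMIs and at most 5% mitochondrial UMIs. They numbered 2250 to 5896 per library, with 4568143 to 17296625 UMIs in all. The mural nuclei numbered 9, 16 and 10 in 1-kidney replicates 1 to 3 and 24, 26, 29 and 43 in 2-kidney replicates 1 to 4. Their summed UMIs were 11099, 40186 and 18223 in the 1-kidney libraries and 91410, 70736, 73470 and 144538 in the 2-kidney libraries, so that every per-library value of the 1-kidney group rests on few nuclei. Median UMIs per mural nucleus were 884, 1682 and 1341.5 against 2667, 2317, 1665 and 2661, beside 1412 to 1867 and 1765 to 2362.5 over all retained barcodes. Both 2-kidney replicates 3 and 4 belong to a set coded P1117B in the library names, while the other 5 libraries carry P1117. The labels do not explain the code, and no 1-kidney library is in P1117B. Any pair of libraries had at most 9 retained barcode sequences in common, 104 over 21 pairs. In sums over nuclei, fewer cells of a type and less RNA per cell cannot be told apart.

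The marker genes chose these nuclei, and their values within them are a description. Itga8 was detected in 110 of the 157 nuclei, Pdgfrb in 106, Notch3 in 63, Myh11 in 43 and Acta2 in 40. The pairing of genes was thin: 119 nuclei had 2 of the 5 genes, 29 had 3, 8 had 4 and 1 had all 5. Itga8 and Myh11 were found together in 9 nuclei. At the threshold, 51 nuclei held exactly 3 marker UMIs and 32 held 4, while 74 held 5 or more and 27 held 10 or more, up to 85. Just outside it, 120 barcodes held 2 marker UMIs and met the other conditions, 30 in the 1-kidney group and 90 in the 2-kidney group. Another 102 barcodes reached 3 UMIs with 1 gene alone, 89 were kept out by the fibroblast genes and 13 by Flt1 and Kdr. The mural nuclei held 11.2% to 32.9% of each library's UMIs of the 5 genes. The remaining UMIs of these genes lay in barcodes that the rule did not take.

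Each nucleus was placed by the marker with the most UMIs. Of the 157, 39 were led by Myh11 plus Acta2, 53 by Itga8, 50 by Pdgfrb plus Notch3, and 15 were tied. Depth differed between these classes, with medians of 1520, 1747 and 2455 UMIs in the 3 led classes and 2978 among the tied nuclei. Myh11 stood at 48.3 per 10000 UMIs in the Myh11/Acta2-led nuclei and at 0.07 and 0.82 in the Itga8-led and Pdgfrb/Notch3-led nuclei, and Itga8 at 12.7 in its own class against 1.68 and 2.38. These contrasts follow from the way the classes were drawn.

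All genes were ranked by their level in mural nuclei over all other retained barcodes, among 4333 genes with a level of at least 50 CPM in mural nuclei. Because every gene of the chosen nuclei can be tied to the markers, the ranking is a description with no test. The first 20 genes were 34.6 to 440-fold higher in mural nuclei, 14 of them in all 7 libraries, and 3 were markers of the rule (Acta2, Myh11 and Pdgfrb). Dmp1, a secreted acidic phosphoprotein known from bone and tooth matrix, headed the list with 47 UMIs in the 157 mural nuclei and 19 in all other retained barcodes, 1.05 against 0.00238 per 10000. Myocd, the myocardin coactivator that switches on smooth muscle genes, was 116-fold higher. The next were Lmod1 (leiomodin, an actin filament nucleator of smooth muscle) at 107-fold, Rgs5 (a G-protein signalling regulator of pericytes and arteriolar muscle) at 103-fold, the potassium channel gene Kcnk3 at 103-fold and the calcium channel partner Stac at 97.8-fold. Dgkb, a diacylglycerol kinase, was 58.6-fold higher, and Pde3a, a cyclic nucleotide phosphodiesterase of vascular muscle, 34.6-fold. Also on the list were Mcf2, Ndst3, Palm2, Tmeff2, Lancl3, Egflam, Ptp4a3 and Brinp3.

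Most of these genes sat in the Myh11/Acta2-led nuclei. Dmp1 had 4.11 UMIs per 10000 there, 0.0726 in Itga8-led and 0.439 in Pdgfrb/Notch3-led nuclei. Lmod1 had 7.37, 0.508 and 0, and Myocd 4.95, 0.363 and 0.0627. The same order of the Myh11/Acta2-led class first held for Stac (5.58, 0.726 and 1.51), Dgkb (17.5, 1.31 and 2.45), Tmeff2 (4.42, 0.145 and 0) and Egflam (7.05, 1.16 and 2.38). Lancl3 was the reverse, with 2.40 in Itga8-led nuclei against 0.211 and 0.439. Pde3a was spread over all of them at 28.8, 18.2 and 10.6, and it was also at 11.0 in fibroblast nuclei. The contractile apparatus list (24 genes) summed to 86.5 per 10000 in Myh11/Acta2-led, 49.1 in Itga8-led, 37.0 in Pdgfrb/Notch3-led and 50.9 in fibroblast nuclei. Of its genes, 17 were highest in the Myh11/Acta2-led class among the 3 led classes. Others were not, such as Vcl (2.74, 4.14 and 1.94) and Myl9 (0, 0.436 and 0.125). The smooth muscle part of the label is thus used for the Myh11/Acta2-led nuclei, though not every contractile gene was highest there. Some nuclei of this class, in both groups, held Acta2 but no Myh11 UMI. An example in 1-kidney replicate 1 had 5 Acta2 and 2 Itga8 UMIs, and an example in 2-kidney replicate 1 had 3 and 2. For these nuclei the name rests on Acta2 alone.

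**Figure D1:**
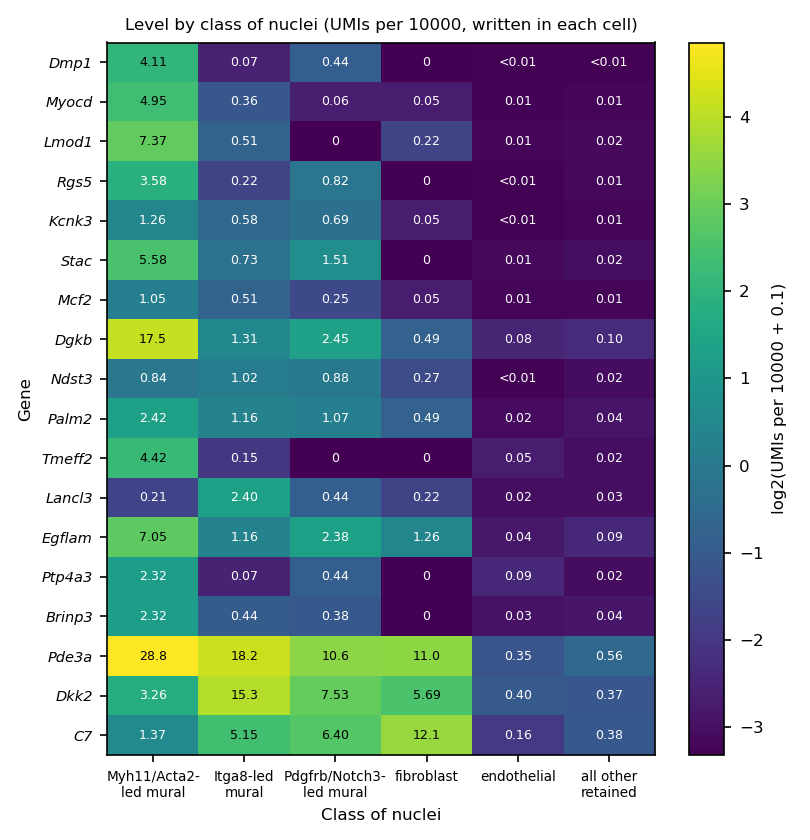
Heat map of 18 genes outside the rule (y axis) in 6 classes of nuclei (x axis), as UMIs per 10000 UMIs of the class, summed over 7 libraries; the number is printed in each cell and the colour follows log2 of the value plus 0.1, and the last column holds all retained barcodes outside the mural nuclei. Dmp1, Lmod1, Myocd and Tmeff2 are concentrated in the Myh11/Acta2-led column, while Dkk2 and C7 are higher in the Itga8-led and Pdgfrb/Notch3-led columns and in fibroblast nuclei.

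The remaining nuclei could not be split into pericytes and mesangial cells by their markers. The summed mesangial list (14 genes) stood at 24.0 per 10000 in Itga8-led and 22.6 in Pdgfrb/Notch3-led nuclei, against 12.8 in Myh11/Acta2-led nuclei and 34.3 in fibroblast nuclei. The pericyte list (13 genes) stood at 30.3 and 28.2, against 37.2 in the Myh11/Acta2-led nuclei and 18.0 in fibroblast nuclei. Most of each pericyte sum in these 3 classes was Ebf1, at 25.0 and 19.6 against 28.0 in the Myh11/Acta2-led nuclei. The genes of the list did not share a direction. Among the 3 led classes, 7 of the 13 were highest in the Myh11/Acta2-led nuclei. Rgs5, for example, had 0.218 and 0.816 against 3.58 there. Abcc9, the sulfonylurea receptor of the pericyte potassium channel, went the other way, with 3.19 and 4.20 against 0.316 in the Myh11/Acta2-led nuclei. Of the mesangial genes, Fhl2 had 3.63 and 3.45 against 0.632, Agtr1a (the angiotensin II receptor) 3.70 and 3.32 against 0.737, and Piezo2 (a stretch-gated channel) 3.85 and 1.25 against 1.47. Gata3, the transcription factor used most often to mark mesangial cells, did not stand apart, at 1.60 and 1.57 against 1.68 in Myh11/Acta2-led nuclei and 0.985 in the other retained barcodes. C7, a complement gene on the fibroblast marker list, had 5.15 in Itga8-led and 6.40 in Pdgfrb/Notch3-led nuclei, 1.37 in Myh11/Acta2-led nuclei and 12.1 in fibroblast nuclei. Dkk2, a Wnt pathway modulator chosen after its values were seen, had 15.3, 7.53, 3.26 and 5.69 in the same order. The classes other than the smooth muscle one are therefore called by their leading genes.

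Markers of other cell types were also counted in these barcodes. The 8 proximal tubule markers together had 217 to 249 UMIs per 10000 in the mural nuclei of the 1-kidney libraries and 87.4 to 202 in those of the 2-kidney libraries, with no overlap, beside 263 to 328 and 146 to 275 in the other retained barcodes of the same libraries. The endothelial list stood at 2.70 to 3.23 against 5.04 to 13.0, and the loop, distal and collecting duct list at 10.9 to 24.7 against 15.7 to 30.2. In the other retained barcodes these 2 lists stood at 3.60 to 6.19 and 40.3 to 58.3. The podocyte list stood at 0.90 to 2.49 against 0.54 to 7.40, highest in 2-kidney replicate 4, whose Itga8-led nuclei held 19.6, beside 5.65 to 14.0 in the other retained barcodes. The fibroblast markers outside the rule stood at 0.90 to 8.23 against 5.19 to 10.1, with Lum at 0. They were at 17.8 in fibroblast nuclei and at 0.342 to 1.15 in the other retained barcodes. The immune list stayed at or below 1.00 in every library, with Csf1r, Cd3e, Cd79a and C1qa at 0, beside 0.342 to 0.845 in the other retained barcodes. The Schwann cell list stayed at or below 0.50, with Sox10, S100b and Cdh19 at 0. In all, 112 of the 157 nuclei held at least 2 UMIs of podocyte, loop, distal, collecting duct or immune markers. The same count was not made over the other retained barcodes, so this number does not show the mural nuclei to be more mixed. There were 3 mural nuclei, all in 2-kidney replicate 3, among the highest doublet scores. The source of this RNA and its part in the gene results below were not tested.

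Smooth muscle genes are known to be switched on by serum response factor (Srf) and myocardin at the CArG box, read here as CC, then 6 letters A or T, then GG, on both strands. RefSeq promoter windows on the GRCr8 build, 250 bases before to 50 after the start, were found for 21 of the 27 genes of the contractile list and the rule that were looked for, in 22 windows. Of these genes 2 held the motif, beside 548 of 33469 windows of the same length over all genes (1.64%). The matches lay in Srf itself, at 2 places, and in Ldb3, a Z-disc protein that in these data followed Myh11. The 100 bases before each start are shown because they are the windows of the contractile genes that carry the motif, with the matches in capitals.
Srf, chr9:21923976-21924075, plus strand: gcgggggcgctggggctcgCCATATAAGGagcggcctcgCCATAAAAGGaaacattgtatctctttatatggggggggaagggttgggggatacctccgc
Ldb3, chr16:9924680-9924779, minus strand: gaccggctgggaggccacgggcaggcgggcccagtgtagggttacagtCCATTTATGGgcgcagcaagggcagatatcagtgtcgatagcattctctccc
The Srf matches lie 81 to 72 and 61 to 52 bases before the start and the Ldb3 match 52 to 43 bases before it. Ldb3 had 3.79 UMIs per 10000 in Myh11/Acta2-led nuclei, 0.581 in Itga8-led and 0.314 in Pdgfrb/Notch3-led nuclei. Srf had 6 UMIs in all mural nuclei and was not tested. The Acta2 window held no match, and Myh11, Lmod1 and Myocd were not in the table.

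The share of mural nuclei was lower in each 1-kidney library than in any 2-kidney library. It was 0.400%, 0.366% and 0.237% of retained barcodes in the 1-kidney libraries and 0.624%, 0.594%, 0.492% and 0.743% in the 2-kidney libraries, or 0.334% ± 0.0861 (SD, n = 3) against 0.613% ± 0.103 (SD, n = 4). The difference of -0.279 percentage points had an exact two-sided permutation p of 0.0571 and an adjusted p of 0.133 over the 7 shares tested, where 35 assignments of the libraries allow no p below 0.0286. With each barcode thinned to 1000 UMIs the shares were 0.0754%, 0.240% and 0.217% against 0.387%, 0.294%, 0.235% and 0.368%, and the groups overlapped (exact permutation p = 0.0857). In 1-kidney replicate 1 a mean of 1.1 mural nuclei was left. Without nuclei that held other cell types' markers the difference was -0.0855 points (exact permutation p = 0.343), and with at least 5 marker UMIs it was -0.112 points (p = 0.114), with overlap in both. Thinning left out 791, 1164 and 945 shallower barcodes in the 1-kidney libraries, 7, 4 and 1 of them mural, and 914, 691, 1136 and 694 in the 2-kidney libraries, 1, 1, 6 and 3 of them mural. Barcodes kept out of the mural class by the fibroblast genes alone numbered 2, 1 and 4 against 28, 15, 13 and 26.

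The Myh11/Acta2-led nuclei overlapped between the groups, while the Itga8-led nuclei were fewer in each 1-kidney library. Myh11/Acta2-led nuclei numbered 6, 5 and 4 in the 1-kidney libraries and 5, 6, 6 and 7 in the 2-kidney libraries, or 0.267%, 0.114% and 0.0947% of retained barcodes against 0.130%, 0.137%, 0.102% and 0.121% (exact permutation p = 0.686). Itga8-led nuclei numbered 2, 4 and 3 against 6, 8, 15 and 15, or 0.0889%, 0.0916% and 0.0711% against 0.156%, 0.183%, 0.254% and 0.259%. These groups did not overlap, at a difference of -0.129 percentage points (exact permutation p = 0.0571, adjusted p = 0.133 over 7 shares). Thinned to 1000 UMIs, Itga8-led nuclei were at 0.00685%, 0.0390% and 0.0626% against 0.109%, 0.0990%, 0.117% and 0.132% of retained barcodes (exact permutation p = 0.0286, not adjusted), from 0.1 to 6.7 nuclei per library on average. Pdgfrb/Notch3-led nuclei numbered 1, 6 and 2 against 9, 11, 7 and 14, and their shares of retained barcodes overlapped at 0.0444%, 0.137% and 0.0474% against 0.234%, 0.251%, 0.119% and 0.242% (exact permutation p = 0.0857). No share passed 0.05 after adjustment.

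**Figure D2:**
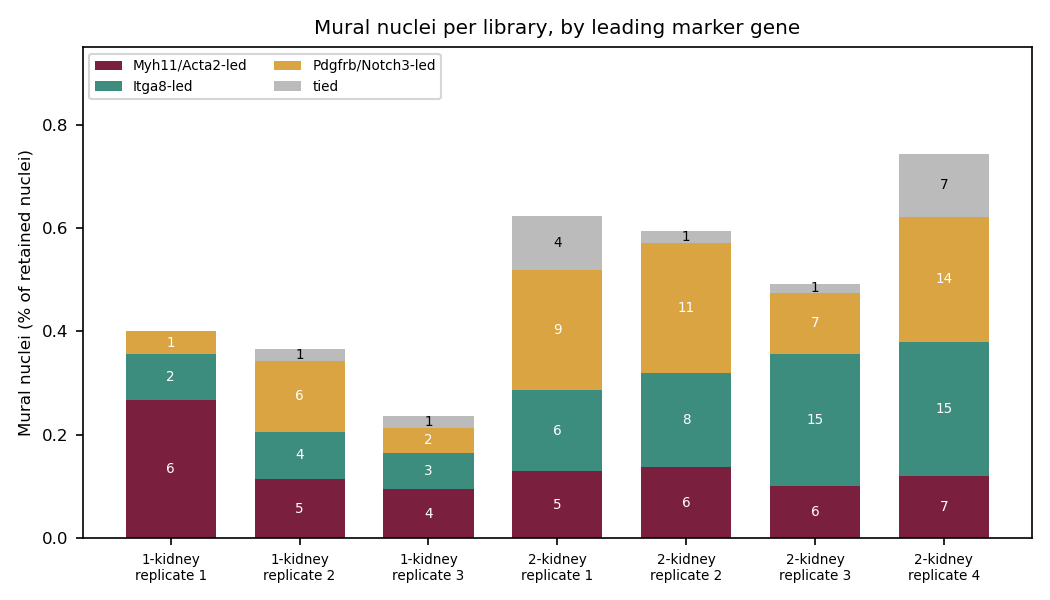
Stacked bars of mural nuclei as a percentage of retained barcodes (y axis) in each library (x axis), split by leading marker, with the number of nuclei in each segment. The 1-kidney bars reach 0.400%, 0.366% and 0.237% and the 2-kidney bars 0.492% to 0.743%; the Myh11/Acta2-led segments hold 4 to 7 nuclei in every library.

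Within the mural nuclei, Myh11/Acta2-led nuclei took a larger share in each 1-kidney library than in any 2-kidney library, a difference that did not pass after adjustment. They made up 66.7%, 31.3% and 40.0% of mural nuclei there and 20.8%, 23.1%, 20.7% and 16.3% in the 2-kidney libraries, or 46.0% ± 18.4 (SD, n = 3) against 20.2% ± 2.85 (SD, n = 4). The difference of 25.8 percentage points, 15.4 without 1-kidney replicate 1, had no overlap (exact permutation p = 0.0286, the smallest this design allows; adjusted p = 0.133 over 7 shares). The difference was not kept in the thinned means. All 6 Myh11/Acta2-led nuclei of 1-kidney replicate 1 had under 1000 UMIs, and thinning left them out. Thinned, that library kept a mean of 1.1 mural nuclei, none of them Myh11/Acta2-led, and the other 1-kidney libraries were at 40.3% and 43.7% against 25.6%, 32.3%, 23.2% and 29.6% in the 2-kidney libraries. Over all 7 libraries the thinned means were 28.0% and 27.7% (exact permutation p = 1). The Itga8-led share of mural nuclei was 25.7% against 35.6% (exact permutation p = 0.229) and the Pdgfrb/Notch3-led share 22.9% against 34.1% (exact permutation p = 0.257).

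The levels of the marker genes inside the mural nuclei are given without a test. The rule used these genes and the classes were drawn from the same UMIs, so the levels partly restate the class counts. Myh11 stood at 50.5, 32.3 and 20.9 UMIs per 10000 in the 1-kidney libraries and at 7.00, 10.2, 3.81 and 6.43 in the 2-kidney libraries. Notch3 stood at 5.41, 7.22 and 3.29 against 2.30, 2.83, 1.91 and 1.73. Both genes had the 1-kidney libraries above all 2-kidney libraries. Pdgfrb, by contrast, overlapped at 4.51, 3.24 and 6.04 against 4.27, 3.82, 4.22 and 3.81, as did Acta2 at 4.51, 5.97 and 2.74 against 3.28, 1.27, 2.04 and 2.35. Itga8 overlapped too, at 7.21, 3.48 and 7.13 against 4.60, 6.93, 6.40 and 6.16.

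Over all retained barcodes, where the rule plays no part, none of the 5 genes passed the test. There 14205 genes were tested by edgeR's quasi-likelihood test and 0 passed an adjusted p of 0.05 (0%), with 2895 (20.4%) at an unadjusted p under 0.05 and 350 called by DESeq2. Itga8 stood at 0.171, 0.290 and 0.240 per 10000 in the 1-kidney libraries and 0.646, 0.328, 0.408 and 0.370 in the 2-kidney libraries, with no overlap. Its log2 difference was -0.85 ± 0.23 (SE, 3 against 4 libraries), with an unadjusted p of 0.00437 and an adjusted p of 0.193 by edgeR. DESeq2 called it, at -0.88 and an adjusted p of 0.0304. Groups did not overlap for 17.5% of all genes tested, 8.13% higher and 9.35% lower.

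The other markers differed less clearly over all retained barcodes. Pdgfrb stood at 0.0657, 0.117 and 0.0900 against 0.299, 0.102, 0.101 and 0.140 per 10000 (log2 -0.74 ± 0.36, edgeR adjusted p = 0.275). Acta2 stood at 0.0219, 0.0336 and 0.0131 against 0.0751, 0.0210, 0.0184 and 0.0295 (-0.57 ± 0.51, adjusted p = 0.519). Both rested on 2-kidney replicate 1, which was the highest library for each: without it the differences were -0.31 and -0.01, with edgeR adjusted p of 0.378 and 0.989. Notch3 stood at 0.0722, 0.0800 and 0.120 against 0.136, 0.102, 0.143 and 0.144 (-0.49 ± 0.22, adjusted p = 0.243). Myh11 was the one marker with a positive difference, at 0.201, 0.220 and 0.125 against 0.186, 0.139, 0.0719 and 0.117 (0.54 ± 0.29, adjusted p = 0.310).

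**Figure D3:**
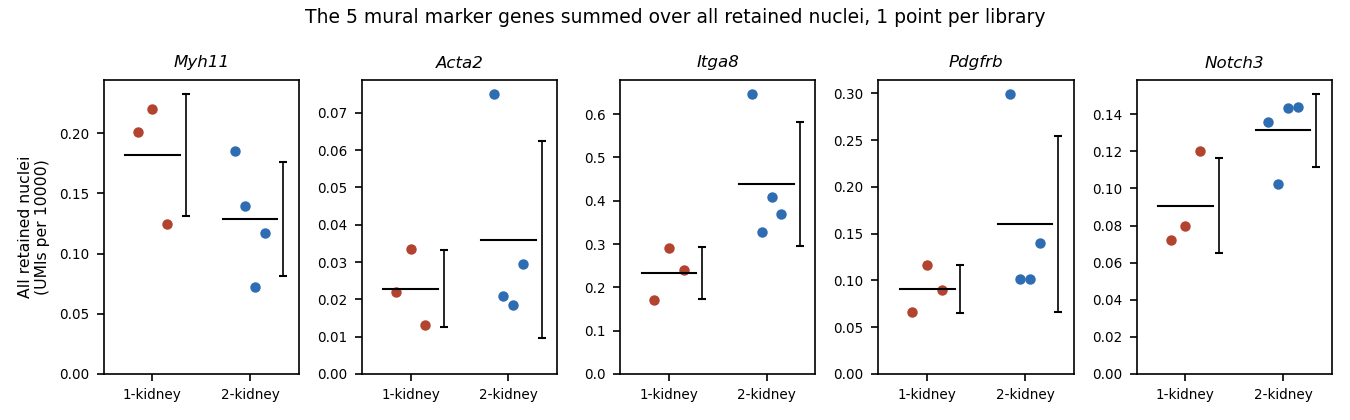
UMIs per 10000 (y axis) of the 5 marker genes over all retained barcodes, 1 point per library, grouped as 1-kidney and 2-kidney (x axis), with the mean as a line and the SD as a bar. Itga8 has no overlap between the groups, and 2-kidney replicate 1 is the highest point for Itga8, Pdgfrb and Acta2.

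Counts summed over the mural nuclei of each library were tested for the genes the rule did not use. Of 1963 genes, 5 passed an adjusted p of 0.05 by edgeR (0.255%), 4 higher (0.204%) and 1 lower (0.0509%) in the 1-kidney libraries, with 220 (11.2%) at an unadjusted p under 0.05. The median log2 difference of all genes was -0.07. On simulated counts of this size the test recovered 76.1% of 4-fold and 20.7% of 2-fold changes, so most smaller changes could not have been called. A mural fit with the library set as a term called 0 genes, with a lowest adjusted p of 0.165, and so did the fit without the 3 nuclei of high doublet score, at 0.0618. Left out singly, 1-kidney replicates 1, 2 and 3 left 0, 0 and 7 calls, and 2-kidney replicates 1 to 4 left 2, 2, 1 and 4.

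Dmp1, the gene that marked the mural nuclei most sharply, rose in the 1-kidney libraries. It stood at 3.60, 4.48 and 2.74 UMIs per 10000 there and at 0.438, 0.848, 0.544 and 0.415 in the 2-kidney libraries. These are 27 UMIs against 20, and the groups did not overlap, as for 13.2% of the genes tested (5.71% higher and 7.54% lower). The log2 difference was 2.73 ± 0.52 (SE), with an edgeR adjusted p of 0.0196. The call was lost without 1-kidney replicate 1 or 2 (adjusted p = 0.155 and 0.356) and without 2-kidney replicate 1 or 3 (0.0564 and 0.0690). Within the Myh11/Acta2-led nuclei, where most of it lay, Dmp1 was at 9.75 ± 1.26 (SD, n = 3) against 2.60 ± 1.28 (SD, n = 4), again without overlap. In the other mural nuclei it was at 0.68 against 0.092, with overlap, from 0, 6 and 0 UMIs against 0, 0, 2 and 0. A fit on the Myh11/Acta2-led nuclei alone gave 1.71 with an adjusted p of 0.144. Over all retained barcodes Dmp1 differed by 1.25 ± 0.40 (edgeR adjusted p = 0.200).

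Filip1, whose protein binds filamin A, also rose. It stood at 4.51, 3.73 and 4.94 against 0.766, 0.707, 0.817 and 1.45 per 10000, so every 1-kidney library was above every 2-kidney library. The log2 difference was 2.07 ± 0.44, with an edgeR adjusted p of 0.0489. With a single library left out it passed once, without 2-kidney replicate 4 (adjusted p = 0.0328). Without 1-kidney replicates 1, 2 and 3 the adjusted p was 0.168, 0.318 and 0.116, and without 2-kidney replicates 1, 2 and 3 it was 0.0587, 0.102 and 0.0753. Like Dmp1, it lay in the Myh11/Acta2-led nuclei, at 11.7 ± 1.51 (SD, n = 3) against 2.75 ± 1.97 (SD, n = 4) with no overlap, and at 0.85 against 0.58 in the other mural nuclei. Alone, the Myh11/Acta2-led nuclei gave 1.83 with an adjusted p of 0.149. Lmod1 was also higher in the 1-kidney nuclei of this class, at a mean of 14.5 against 5.68 per 10000 without overlap. The 5 marker genes together stood there at 84.7 to 150 against 19.2 to 74.7, also without overlap. Myocd overlapped, at 7.29 against 5.10. Dmp1 and Filip1 were thus not the only genes to separate the groups in this class.

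Ntrk3, the receptor for neurotrophin-3, rose on the strength of 1 library. It stood at 3.60, 9.21 and 2.74 against 2.30, 0.707, 1.22 and 1.11 per 10000, without overlap but with 1-kidney replicate 2 far above the rest. The log2 difference was 2.08 ± 0.46 (edgeR adjusted p = 0.0489) and 1.09 without that library (adjusted p = 0.601). The call was also lost without 1-kidney replicate 1 (0.155) and without 2-kidney replicates 2, 3 and 4 (0.103, 0.0690 and 0.0707). Ntrk3 was nearly confined to the Myh11/Acta2-led nuclei among the mural classes, at 9.16 per 10000 against 0 in Itga8-led and 0.188 in Pdgfrb/Notch3-led nuclei. Its values there overlapped between the groups, at 16.8 ± 13.4 against 6.36 ± 5.43.

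AABR07040864.1, a gene model without a name, rose and was less tied to a class, at 7.37 per 10000 in Myh11/Acta2-led, 5.73 in Itga8-led and 5.27 in Pdgfrb/Notch3-led nuclei. It stood at 22.5, 15.7 and 14.3 against 4.49, 7.21, 2.72 and 2.01 per 10000, without overlap. The log2 difference was 2.03 ± 0.39 (edgeR adjusted p = 0.0196). The call was lost without 1-kidney replicate 1 or 2 (adjusted p = 0.156 and 0.207) and without 2-kidney replicate 1 or 3 (0.0533 and 0.0690). In the Myh11/Acta2-led nuclei it overlapped, at 25.0 ± 19.0 against 2.64 ± 3.08, and in the other mural nuclei it did not, at 12.7 ± 5.01 against 4.62 ± 2.78. It differed over all retained barcodes as well, by 1.28 ± 0.43, without passing (edgeR adjusted p = 0.200).

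Pknox2, a homeodomain transcription factor of the TALE class, was the gene that fell. It had 0, 0 and 1 UMI in the 1-kidney libraries and 23, 14, 20 and 35 in the 2-kidney libraries, or 0, 0 and 0.549 against 2.52, 1.98, 2.72 and 2.42 per 10000. The pooled level was 16.8-fold higher in the 2-kidney group, with an exact 95% interval of 2.94 to 672 that covers counting error alone. EdgeR gave a log2 difference of -3.90 ± 0.86 (adjusted p = 0.0489), a value that depends on the prior count, and DESeq2 an adjusted p of 0.0933. Without 1-kidney replicate 3, the library with the 1 UMI, edgeR gave -7.13 (adjusted p = 0.0385), and without any other single library the adjusted p was above 0.05, 0.168 and 0.381 without 1-kidney replicates 1 and 2 and 0.0738, 0.102, 0.0815 and 0.0707 without the 2-kidney replicates. Pknox2 lay in Itga8-led (3.27 per 10000) and Pdgfrb/Notch3-led nuclei (1.69) more than in Myh11/Acta2-led nuclei (0.632), and it was also at 3.66 in fibroblast nuclei. In the mural nuclei outside the Myh11/Acta2-led class it was at 0.26 ± 0.44 against 2.86 ± 0.58, without overlap. Over all retained barcodes it differed by -0.78 ± 0.23 (edgeR adjusted p = 0.194).

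**Figure D4:**
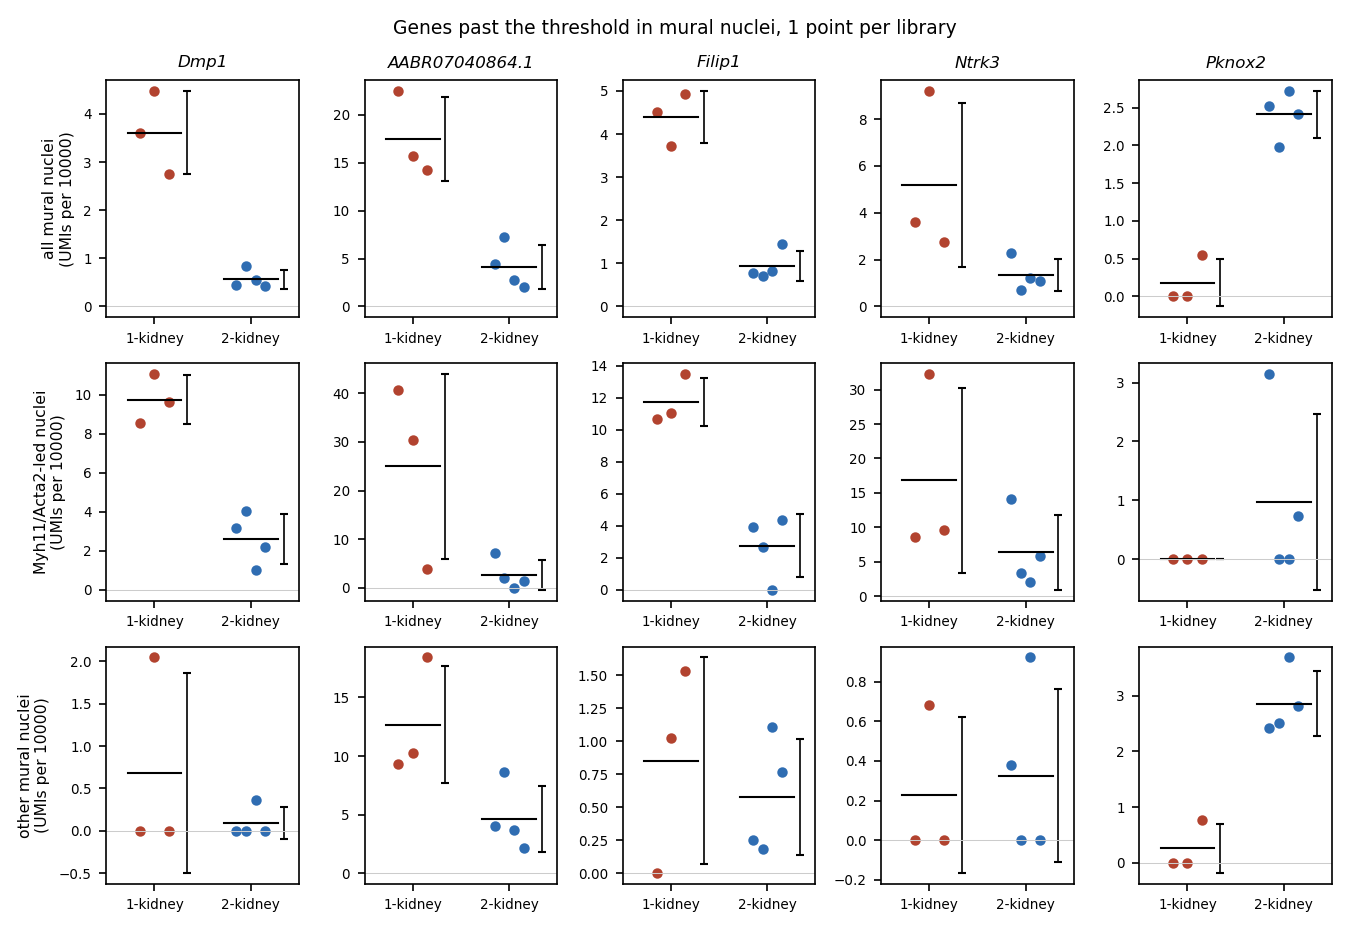
UMIs per 10000 (y axis) of the 5 genes that passed the test, in all mural nuclei, in the Myh11/Acta2-led nuclei and in the other mural nuclei, 1 point per library with the mean as a line and the SD as a bar. Dmp1 and Filip1 separate the groups in the Myh11/Acta2-led nuclei, Pknox2 and AABR07040864.1 in the other mural nuclei.

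The next 5 genes by p missed the threshold, each with an edgeR adjusted p of 0.0599 and with no overlap between the groups. Akap6, an anchor of protein kinase A, stood at 8.11, 5.72 and 3.84 against 1.53, 0.707, 0.953 and 2.42 per 10000 (log2 1.88 ± 0.43). Dmd, the gene of dystrophin, stood at 14.4, 15.2 and 4.39 against 3.72, 4.38, 1.63 and 4.36 (1.64 ± 0.39). Both were higher in Myh11/Acta2-led nuclei, Akap6 at 8.21 against 0.436 in Itga8-led and 0.565 in Pdgfrb/Notch3-led nuclei, and Dmd at 19.0 against 1.52 and 1.38. Slc5a12, a lactate transporter of the proximal tubule, stood at 9.01, 8.71 and 5.49 against 2.19, 1.27, 4.36 and 1.94 (1.65 ± 0.39), beside the proximal tubule totals given above. Pclo, a scaffold protein of synapses, stood at 5.41, 1.99 and 7.13 against 1.42, 0.424, 1.22 and 0.692 (2.15 ± 0.52). With the groups pooled, Pclo was at 2.39 in the other retained barcodes and at 1.00 to 1.37 in the 3 led mural classes. The unnamed model AABR07035916.1 was the one lower in the 1-kidney libraries, at 2.70, 2.24 and 1.65 against 5.69, 5.51, 7.21 and 11.5 (-1.83 ± 0.44).

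Fits on each side of the smooth muscle divide gave other genes. On the Myh11/Acta2-led nuclei alone, a fit added after seeing the data, 2 of 140 genes passed edgeR's adjusted p of 0.05, Slc34a1 (the proximal tubule phosphate transporter) and Cpq (a peptidase), both lower. Without the Myh11/Acta2-led nuclei, 6 of 1368 passed: Slc5a12, Pclo and G6pc (glucose-6-phosphatase of the proximal tubule) higher, Dkk2, Rcan2 and Etl4 lower. None of these 8 was among the 5 of all mural nuclei, of which 3 could be tested in the first fit and 2 in the second. Slc34a1 was at 47.5 ± 9.63 (SD, n = 3) against 116 ± 11.5 (SD, n = 4) per 10000 in the Myh11/Acta2-led nuclei and at 263 ± 44.4 against 88.4 ± 54.2 in the other mural nuclei, the reverse order with no overlap in each. The whole proximal tubule list likewise stood at 61.7 to 72.7 against 140 to 171 in the Myh11/Acta2-led nuclei. Dkk2 over all mural nuclei stood at 7.21, 4.73 and 0 against 13.2, 9.33, 12.5 and 10.2 (log2 -1.60 ± 0.48, edgeR adjusted p = 0.132).

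The lists below group genes by their role in mural cells, and 0 members passed the test in any of them. Of all genes tested, 892 of 1963 were above 0 in mural nuclei and 7060 of 14205 over all retained barcodes. The contractile apparatus had 14 of 24 listed genes tested, 7 with a log2 difference above 0 and 7 below, at a median of 0.01 beside -0.07 over all 1963 genes. Flna, the filamin that crosslinks actin, stood at 6.53 ± 4.06 (SD, n = 3) against 2.37 ± 0.582 (SD, n = 4) per 10000 (1.20 ± 0.43, edgeR adjusted p = 0.259). Cald1 (caldesmon, a brake on myosin) stood at 15.8 ± 8.19 against 9.26 ± 3.67 (0.64 ± 0.38, adjusted p = 0.537). Mylk (myosin light chain kinase) had a difference of 0.06 and Tpm1 (tropomyosin) of -0.21. Over all retained barcodes 6 of 22 contractile genes were above 0, with a median of -0.35.

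Mesangial and pericyte genes were fewer among those tested. Of 10 mesangial genes tested, 3 were above 0 and 7 below, with a median of -0.98, and none passed. Fhl2, a LIM domain cofactor, had 1.28 against 3.24 per 10000 (-1.45 ± 0.61, edgeR adjusted p = 0.394), and Piezo2 differed by -0.22. Agtr1a, through which angiotensin II contracts mural cells, stood at 2.96 ± 0.921 against 2.91 ± 0.724 (0.11 ± 0.41, adjusted p = 0.962). Of the pericyte list 3 of 13 genes were tested: Ebf1, an early B-cell factor, had 22.5 ± 7.77 against 25.0 ± 6.83 (-0.21 ± 0.34), Abcc9 1.62 against 2.88 (-1.26 ± 0.55, adjusted p = 0.414) and Rgs5 2.44 ± 1.68 against 0.861 ± 0.53 (1.63 ± 0.56, adjusted p = 0.235). Rgs5 lay mainly in the Myh11/Acta2-led nuclei, at 3.58 against 0.218 in Itga8-led nuclei, and Abcc9 outside them. Summed over all retained barcodes, the mesangial list had 2 of 13 genes above 0 and a median of -0.39, and the pericyte list 3 of 8 and a median of -0.25.

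Signalling between vessel wall cells was covered by the Notch, PDGF and TGF-beta lists. In the Notch list 1 of 17 genes could be tested: Maml2, a coactivator of the Notch complex, stood at 1.80, 6.47 and 7.68 against 12.1, 17.8, 12.5 and 14.5 per 10000. The groups did not overlap, at -1.33 ± 0.38 and an edgeR adjusted p of 0.111. Of the PDGF and TGF-beta list 9 of 19 were tested, 4 above 0 and 5 below, with a median of -0.38. In all retained barcodes 3 of 15 Notch genes were above 0, at a median of -0.37, and 5 of 19 PDGF and TGF-beta genes, at -0.20. Pdgfa, a PDGF ligand, stood at 4.01 ± 0.808 against 2.05 ± 1.18 (0.93 ± 0.48, adjusted p = 0.486), and Tgfbr3, the betaglycan co-receptor, at 1.56 ± 0.288 against 3.12 ± 0.229 (-1.12 ± 0.47, adjusted p = 0.391), both without overlap. Ltbp1, which stores latent TGF-beta in the matrix, stood at 4.14 against 2.06 (1.13 ± 0.42, adjusted p = 0.309) and lay mainly in Myh11/Acta2-led nuclei, at 7.58 against 1.09 and 1.32.

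Among receptors and channels that set vessel tone, the directions were mixed. Of the vasoactive receptors 4 of 30 were tested, with 3 above 0 and a median of 0.41, while over all retained barcodes 2 of 21 were above 0, at a median of -0.50. These included Adra1a, the alpha-1A adrenoceptor (0.72 ± 0.43), and Ednra, the endothelin A receptor (0.96 ± 0.54). Of the ion channels 10 of 25 were tested, 4 above 0, with a median of -0.23, and over all retained barcodes 7 of 21, at -0.22. Cacna1c, the L-type calcium channel, stood at 5.77 ± 1.06 against 3.67 ± 0.894 without overlap (0.65 ± 0.35, edgeR adjusted p = 0.497). Kcnma1, the large calcium-activated potassium channel, differed by 0.88 ± 0.47 (adjusted p = 0.494) and Cacnb2, a calcium channel subunit, by 0.94 ± 0.44 (adjusted p = 0.435). Kcnma1 lay mainly in the Myh11/Acta2-led nuclei, at 10.7 against 0.363 in Itga8-led and 0.753 in Pdgfrb/Notch3-led nuclei, as did Cacnb2, at 9.90 against 0.653 and 1.07. The nitric oxide and cGMP list had 8 of 11 tested, 3 above 0, with a median of -0.18, and over all retained barcodes 2 of 10, at -0.47. In it Mrvi1, a target of cGMP kinase, stood at 6.92 against 6.26 (0.11 ± 0.33), and Pde3a at 17.9 ± 4.84 against 19.2 ± 4.87 (-0.12 ± 0.33, adjusted p = 0.944).

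Pde3a had values over all barcodes beside those within mural nuclei. Over all retained barcodes it differed by -0.99 ± 0.21, with no overlap between the groups and an edgeR adjusted p of 0.191. Over the 20 genes that stood highest in mural nuclei, 7 were above 0 and 13 below in all retained barcodes, with a median of -0.20 and 0 called. Beside 20.4% of all genes tested there, 5 of these 20 had an unadjusted edgeR p under 0.05. Those 5 included Pde3a and Palm2 (-0.81 ± 0.28, adjusted p = 0.200) below 0 and Tmeff2 (0.97 ± 0.30, adjusted p = 0.197) and Dmp1 above it.

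The list of integrin alpha8 ligands and kidney induction genes had 8 of 16 tested, 2 above 0, with a median of -0.81, and 0 of 13 above 0 over all retained barcodes, at a median of -0.54 beside -0.00 for all genes. Slit2, a guidance ligand that limits ureteric budding, differed by -0.69, Itgb1, the beta1 partner of Itga8, by -0.54, and Frem1, a basement membrane protein that helps deposit nephronectin, by -1.12 ± 0.59. Its relative Frem2 went the other way, at 3.63 ± 1.54 (SD, n = 3) against 1.38 ± 0.401 (SD, n = 4) per 10000 without overlap (1.23 ± 0.45, edgeR adjusted p = 0.289). The basement membrane matrix list had 16 of 27 tested, 5 above 0, with a median of -0.12, and over all retained barcodes 7 of 26, at -0.29. In it Lama2, the laminin alpha2 chain, stood at 3.49 ± 1.58 against 6.82 ± 0.899 without overlap (-0.92 ± 0.38, adjusted p = 0.389) and Col12a1, a fibril-associated collagen, differed by -1.22 ± 0.46 (adjusted p = 0.319). Both were at their highest in fibroblast nuclei, 10.5 and 10.3 per 10000, and higher in Itga8-led and Pdgfrb/Notch3-led than in Myh11/Acta2-led nuclei.

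Of 13 growth factor and receptor genes tested, 5 were above 0, with a median of -0.47. For all retained barcodes 2 of 24 were above 0, at a median of -0.23. Angpt1, the mural cell ligand of the endothelial Tie2 receptor, was counted 5 times in mural nuclei of the 1-kidney group and 111 times in those of the 2-kidney group, or 0.832 ± 0.306 (SD, n = 3) against 2.98 ± 1.13 (SD, n = 4) per 10000. It did not overlap, at a log2 difference of -2.01 ± 0.60 and an edgeR adjusted p of 0.120. Vegfa, the endothelial growth factor, stood at 6.22 ± 0.887 against 3.59 ± 1.32 without overlap (0.73 ± 0.38, adjusted p = 0.486). Insr and Igf1r, the insulin and IGF receptors, differed by 0.02 and -0.47.

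Of the regulator lists, transcription factors had 13 of 32 tested, 4 above 0, with a median of -0.11, and over all retained barcodes 6 of 28, at -0.34. Meis2, a TALE homeodomain factor like Pknox2, stood at 8.70 ± 1.06 against 12.9 ± 2.04 without overlap (-0.63 ± 0.34). The glucocorticoid list had 4 of 15 tested and a median of 0.23, with Fkbp5, a chaperone induced by glucocorticoids, at 4.64 ± 1.55 against 1.49 ± 1.31 (1.38 ± 0.55, edgeR adjusted p = 0.360). Immediate early and heat shock genes had 3 of 17 tested, all above 0, at a median of 1.08, with Egr1 at 1.42 ± 0.62 (adjusted p = 0.410) and Hspd1 at 1.08 ± 0.61 (adjusted p = 0.526). In all retained barcodes these 2 lists were also above 0 on balance, 11 of 15 at a median of 0.29 and 13 of 15 at a median of 0.48. No cell cycle gene could be tested. Mki67 and Cenpf were at 5.80 and 5.94 per 10000 in 2-kidney replicate 2, and Mki67 was at or below 0.415 in every other library.

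**Figure D5:**
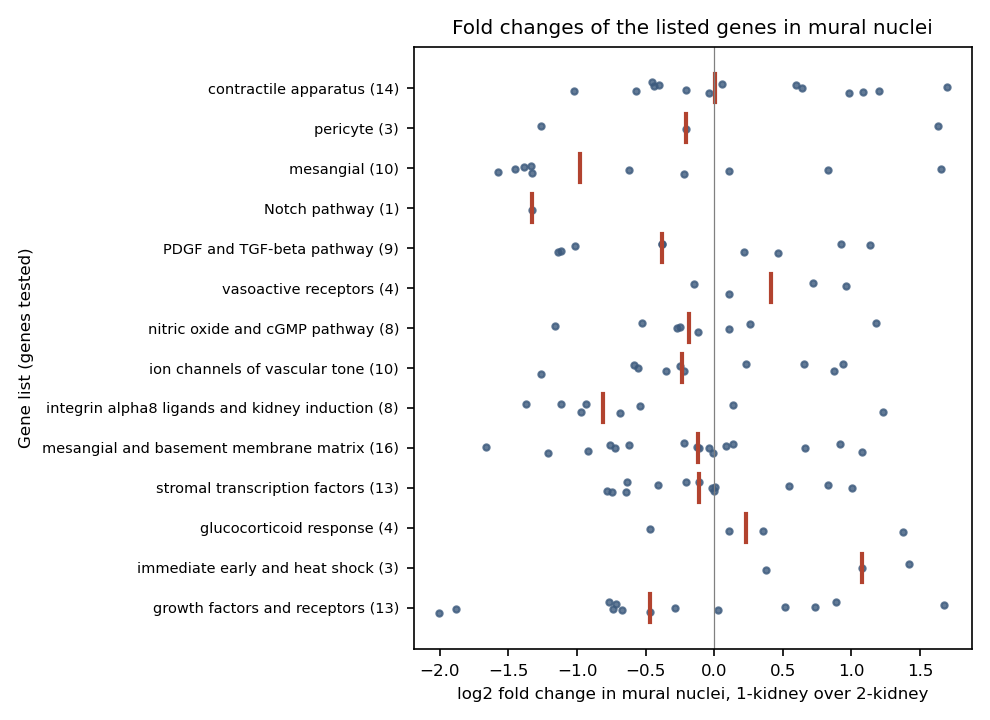
Log2 difference, 1-kidney over 2-kidney, of each tested member of the gene lists in mural nuclei (points, x axis), 1 list per line (y axis), with the median as a red bar. The contractile list is centred at 0.01, the mesangial list at -0.98 and the integrin alpha8 list at -0.81, and no point passed the test.

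Whether a difference between the groups was particular to mural nuclei was tested against the neighbouring cell types in 1 model. Against 1069 endothelial nuclei (344 and 725 by group), 5 of 4877 genes had a different group effect by edgeR's adjusted p of 0.05 (0.103%), 2 higher (0.041%) and 3 lower (0.0615%), with 301 (6.17%) at an unadjusted p under 0.05. Filip1 differed most, by 2.64 ± 0.49 on the log2 scale (adjusted p = 0.00428): it was 4.39 against 0.936 per 10000 in mural and 0.987 against 1.68 in endothelial nuclei. The unnamed model AABR07049085.1 was at 4.39 against 1.27 in mural and 0.520 against 0.941 in endothelial nuclei (2.47 ± 0.56, adjusted p = 0.0404). For 3 genes the mural effect was the lower one. Zeb2, a zinc finger repressor, was at 4.94 against 13.8 in mural and 2.54 against 2.38 in endothelial nuclei (-1.67 ± 0.37, adjusted p = 0.0367). Plxdc2, a plexin domain membrane protein, was at 3.56 against 11.4 and 6.42 against 7.86 (-1.64 ± 0.37, adjusted p = 0.0404). Slco1a6, an organic anion transporter, was at 4.89 against 8.87 and 17.0 against 8.62 (-1.88 ± 0.38, adjusted p = 0.0108). With the groups pooled, Slco1a6 was higher outside these cell types, at 20.9 in all barcodes other than the mural nuclei. It was at 11.3 in endothelial nuclei and 4.14 to 11.7 in the 3 led mural classes. The source of its RNA was not tested. DESeq2 called 1 gene here, Filip1, edgeR called 0, 0 and 1 without each 1-kidney replicate in turn, and 9, 8, 7 and 9 without each 2-kidney replicate.

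Zeb2 was not spread evenly over the mural classes, at 5.16 per 10000 in Myh11/Acta2-led nuclei, 12.4 in Itga8-led and 14.0 in Pdgfrb/Notch3-led nuclei, beside 17.3 in fibroblast nuclei. AABR07049085.1 lay mainly in Myh11/Acta2-led nuclei, at 6.63 against 0.436 in Itga8-led and 0.690 in Pdgfrb/Notch3-led nuclei. The Myh11/Acta2-led share of mural nuclei was larger in each 1-kidney library (exact permutation, adjusted p = 0.133). This was not kept in the thinned means of 28.0% and 27.7%. The part of this share in the Zeb2, Filip1 and AABR07049085.1 results was not tested.

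Against 73 fibroblast nuclei (13 and 60 by group), 0 of 1201 genes had a different group effect by edgeR (0%), with 52 (4.33%) at an unadjusted p under 0.05 and 0 called by DESeq2. The simulated test at this size recovered 30.1% of 4-fold differences and 1.12% of 2-fold ones, so a difference between mural and fibroblast nuclei was rarely detectable. The 5 smallest p were those of Kcnk5 (4.13 ± 1.17), AABR07040864.1 (2.39 ± 0.72), Cyfip2 (-2.70 ± 0.85), Dcn (4.16 ± 1.36) and Pid1 (-5.66 ± 1.88), with adjusted p of 0.509 to 0.614. Pid1, an adaptor protein that affects insulin signalling, had 0 UMIs in 1-kidney mural nuclei and 69 in 2-kidney mural nuclei. With a floor of 3 counts over the 1-kidney group, it was at least 4.21-fold lower there. C7 stood at 0, 1.99 and 1.65 against 7.66, 4.52, 8.17 and 4.01 per 10000 in mural nuclei, without overlap (-2.00 ± 0.51, edgeR adjusted p = 0.0599), and Plxdc2 gave -1.70 ± 0.42 (adjusted p = 0.0599).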

How the data were processed

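Nuclei of 7 rat kidneys were profiled with the 10x Genomics 3' v3.1 chemistry at a target of 5000 nuclei each and sequenced together on an Illumina instrument, per the labels' protocols. The authors' deposited matrices hold raw UMI counts per gene and barcode (25399 genes, 37048 barcodes). The submitters' processing notes name Cell Ranger 7.0. Sources used here do not give the build or how intronic reads were counted. No correction for free RNA was applied here. Each 10x UMI is 1 molecule, but counts from near-identical gene copies can be split or lost.

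Barcodes with at least 200 genes, at most 10000 UMIs and at most 5% UMIs of the 13 Mt- genes were retained. The upper limit removed 2.89% to 7.95% of barcodes per library. Members were taken by the rule given with the results, from all 7 libraries, which keep their group from the titles and a replicate number in accession order. The members and gene lists were chosen with earlier results of these data known. Pecam1 and 11 other listed symbols were not found under that name, and the endothelial nuclei therefore rest on Flt1 and Kdr. Doublets were scored with Scrublet in scanpy 1.11.5. Its automatic threshold called 0 to 3 barcodes in 6 libraries and 1582 in 2-kidney replicate 4, which was taken as not working, so barcodes were removed by score rank in an alternative only.

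Counts were summed per library over the mural nuclei, and edgeR 4.0.16 (R 4.3.3; TMM, filterByExpr, quasi-likelihood test, Benjamini-Hochberg, two-sided) compared 3 with 4 libraries. The 10 genes used by the rule stayed in the totals and left the tested table. Differences from fibroblast and endothelial nuclei used the class by group term with library as a block. Shares were compared by exact permutation over 35 assignments. Levels are UMIs per 10000 UMIs of the same nuclei, and values between genes are not on a per-length scale. Alternatives were RLE scaling, no filter, DESeq2 1.42.0, each library left out, set P1117 alone, the set as a term, other UMI and gene limits, a stricter marker minimum of 5 UMIs, thinning to 1000 UMIs (mean of 20 draws) and removal of nuclei by doublet score or other markers; fits within the Myh11/Acta2-led class and without it were added after seeing the data. Named genes are the markers, the 10 smallest p of the gene test, the 4 highest tested or measured genes of each list, the 20 genes highest in mural over other barcodes and the 5 smallest p of each test of a difference. Dkk2, C7, Srf, Ldb3, Gata3 and the genes of the added fits fall outside this rule and were chosen after their values were seen. Some genes of the lists are not reported here. The edgeR scripts were tested on simulated counts. Intervals and floors cover counting error only.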

Additional observations from a re-analysis of the deposited data

Results flagged for a closer look

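Single libraries stood apart from the rest of their group in 2 of 32 checks of the 2-kidney libraries, and chance gives about 1 in 20. The share of Pdgfrb/Notch3-led nuclei among retained barcodes was 0.119% in 2-kidney replicate 3, below the 0.234% to 0.251% of the other three libraries of the group. Filip1 in mural nuclei was at 1.45 per 10000 in 2-kidney replicate 4, above 0.707 to 0.817 in the others, and still under each 1-kidney library.

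The group effect differed between mural and endothelial nuclei by edgeR's class by group term for 5 genes. The log2 differences in effect were 2.64 for Filip1, 2.47 for AABR07049085.1, -1.64 for Plxdc2, -1.67 for Zeb2 and -1.88 for Slco1a6, with adjusted p of 0.00428 to 0.0404. Of these, Filip1 alone was called by DESeq2, and Filip1 was not called by edgeR when any one of the 1-kidney libraries was left out, with adjusted p of 0.102 to 0.110.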

How the results depend on the processing

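Over 461 recomputed values no called value changed direction. Of those that answer a comparison 125 stayed as they were, called or not, 24 lost a call or calls, 9 gained and 2 moved without a call. For shares, a call in this count was an unadjusted exact permutation p under 0.05, and no share passed after adjustment. The mural share of retained barcodes (-0.279 points) reached the smallest possible p of 0.0286 with a UMI limit of 5000 (-0.236) or no UMI limit (-0.304), and was -0.0855 without nuclei holding other markers and -0.112 with 5 or more marker UMIs (exact permutation p = 0.343 and 0.114). The Myh11/Acta2-led share of mural nuclei (25.8 points) gave 0.318 when thinned (1-kidney replicate 1 then at 0% of 1.1 nuclei), 47.3 without nuclei holding other markers, 24.0 in set P1117 alone and 15.4 to 33.1 with 1 library left out, where the smaller designs allow no p under 0.0667. The Itga8-led share (-9.85) turned to 14.3 without nuclei holding other markers and the Pdgfrb/Notch3-led share (-11.3) to 23.9 when thinned (81.8% of those 1.1 nuclei, beside 39.0% and 21.1% in the other 1-kidney libraries), neither past the threshold. The 5 genes called in mural nuclei became 32 with no filter (4 shared), 24 with DESeq2 (4 shared), 0 in set P1117 alone, 0 with the set as a term, 0 without the highest doublet scores, 0 of 12 without nuclei holding other markers, 2 in Myh11/Acta2-led nuclei only, and 0 to 7 with 1 library left out. The unfiltered calls were 3 higher and 29 lower, the DESeq2 calls 13 higher and 11 lower. The 5 genes that differed from endothelial nuclei became 12 with no filter, 1 with DESeq2 and 0 to 9 with 1 library left out. Itga8 over all retained barcodes was -0.88 and called with DESeq2. The cause of these changes was not tested, beyond the fewer samples or nuclei of the smaller fits. The 35 mural nuclei of the 1-kidney group set the precision. No paired analysis was possible because the labels give no replicate numbers and the numbers here follow accession order.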
